A study of Mus musculus with 14 samples.

Results

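Wt1, Tbx18, Tcf21, Bnc1, Lrrn4 and Gpm6a are genes commonly used to recognise the epicardium, and they were studied here as a set chosen by name. Each name occurs once among the 15894 genes of the table, which gave 6 of 15894 genes, and all 6 passed the filter on low values in every comparison. RNA was measured in epicardium dissected together with the subepicardium from mouse fetal hearts, with the ventral and the dorsal face taken separately and 2 hearts pooled for each of 14 libraries. The labels give no stage, and the study describes the hearts as E16.5. All libraries carry the genotype Tbx18Cre, in which Cre is expressed under the control of Tbx18, while the study calls the hearts wild type. Since no library lacks this allele, its effect on the measured level of Tbx18 was not tested. There were 3 female ventral and 3 female dorsal libraries (numbers 1 to 3 on each side), 4 male ventral libraries (numbers 4 to 7) and 3 male dorsal libraries (numbers 4 to 6). A further male library, with number 7, is dorsal by its title and source name but ventral by its tissue entry, so it entered no main comparison of the regions. Because all female libraries are numbered 1 to 3 and all male libraries 4 to 7, sex and anything else that separates these series of numbers cannot be told apart.

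The epicardium is the mesothelial sheet that covers the heart. It forms from the proepicardium, sends cells into the subepicardial space by an epithelial-to-mesenchymal transition, and gives rise to cardiac fibroblasts and to the mural cells of coronary vessels. Wt1 encodes a zinc-finger transcription factor of mesothelia, Tbx18 a T-box factor present from the proepicardium onwards, Tcf21 a basic helix-loop-helix factor required for the fibroblast fate of epicardial cells, and Bnc1 (basonuclin 1) a zinc-finger protein of epithelia. The other two encode proteins of the cell surface, Lrrn4 a membrane protein with leucine-rich repeats and Gpm6a a membrane glycoprotein of the proteolipid family. In RNA from a dissected layer, fewer epicardial cells and less RNA per epicardial cell cannot be told apart.

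The 6 loci lie on 5 autosomes of GRCm38, and all are protein-coding genes in GENCODE M21. Wt1 lies on chromosome 2 (105126529 to 105173616, plus strand) and Lrrn4 on the same chromosome (132868305 to 132880891, minus strand). Tbx18 lies on chromosome 9 (87702800 to 87731260, minus strand), Tcf21 on chromosome 10 (22817281 to 22820174, minus strand), Bnc1 on chromosome 7 (81966672 to 81992292, minus strand) and Gpm6a on chromosome 8 (54954843 to 55060871, plus strand). Of the 60-base windows of the Tbx18 exons, 17.6% also occur in other annotated transcripts, nearly all of them in D030062O11Rik on the opposite strand, so the value of Tbx18 is uncertain as far as reads from that locus entered it. For Bnc1 this share was 0.872%, with the pseudogene 4833418N17Rik, and it was 0% for the other 4 genes. Tcf21 is spanned by the antisense gene Gm10824, whose exons do not overlap those of Tcf21 and whose mean value was 1.77 normalized CPM.

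The 250 bases upstream of the start site are shown for the members that RefSeq's promoter table (GRCm38.p6) holds, so that the start of the gene with the weakest regional change in female hearts (Tcf21) can be read beside those of the genes with the strongest there (Bnc1, Lrrn4 and Gpm6a). The table has no entry for Wt1. The windows are chr9:87731261-87731510 for Tbx18, chr10:22820144-22820393 for Tcf21, chr7:81992300-81992549 for Bnc1 and chr2:132880863-132881112 for Lrrn4, all on the minus strand, and chr8:54954478-54954727 on the plus strand for Gpm6a. They are written 5′ to 3′ in the direction of the gene, with matches to the searched motifs in capitals.
Tbx18: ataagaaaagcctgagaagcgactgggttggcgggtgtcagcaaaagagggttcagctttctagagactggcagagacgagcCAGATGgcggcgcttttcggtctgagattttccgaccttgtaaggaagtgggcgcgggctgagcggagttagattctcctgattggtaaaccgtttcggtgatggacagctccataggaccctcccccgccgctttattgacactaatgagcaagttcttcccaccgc
Tcf21: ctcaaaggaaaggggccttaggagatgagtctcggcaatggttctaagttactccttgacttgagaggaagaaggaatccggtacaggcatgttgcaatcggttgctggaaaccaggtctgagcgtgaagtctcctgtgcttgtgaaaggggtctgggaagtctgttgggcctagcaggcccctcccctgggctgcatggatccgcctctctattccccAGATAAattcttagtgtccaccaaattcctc
Bnc1: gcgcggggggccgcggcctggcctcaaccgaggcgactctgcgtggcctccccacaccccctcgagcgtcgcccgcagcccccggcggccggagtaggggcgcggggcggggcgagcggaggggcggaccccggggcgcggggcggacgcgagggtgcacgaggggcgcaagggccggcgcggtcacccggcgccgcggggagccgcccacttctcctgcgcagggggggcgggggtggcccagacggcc
Lrrn4: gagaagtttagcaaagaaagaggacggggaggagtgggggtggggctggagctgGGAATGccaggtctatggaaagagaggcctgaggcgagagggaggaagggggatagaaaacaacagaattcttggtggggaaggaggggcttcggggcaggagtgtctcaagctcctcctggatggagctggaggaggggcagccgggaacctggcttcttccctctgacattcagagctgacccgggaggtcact
Gpm6a: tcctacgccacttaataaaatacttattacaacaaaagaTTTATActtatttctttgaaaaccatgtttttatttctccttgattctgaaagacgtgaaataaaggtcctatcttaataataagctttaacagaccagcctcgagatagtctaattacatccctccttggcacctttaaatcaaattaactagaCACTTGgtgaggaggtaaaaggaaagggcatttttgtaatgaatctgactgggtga

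Base composition set these windows apart from each other. Bnc1 had a GC content of 83.6% and Gpm6a one of 33.6%, on either side of the median of 52.4% over all promoters of the table, while Tbx18 (54%), Tcf21 (52.4%) and Lrrn4 (59.2%) lay closer to it. Motifs were searched on both strands. An E-box (CANNTG) was found in Tbx18 and in Gpm6a and occurs in 66.2% of 32536 promoters of the same length. A GATA match (AGATAA) was found in Tcf21 (9.97% of promoters), a TEAD match (GGAATG) in Lrrn4 (12.6%) and a TATA match (TATAAA, read on the opposite strand) in Gpm6a (12.3%). None of the printed windows holds the T-box motif (GGTGTGA, 3.33% of promoters) or the WT1/EGR motif (GCGGGGGCG, 2.60%), and Bnc1 holds none of the 6 motifs searched. RefSeq lists a further start site of Gpm6a upstream of the gene span given above, with 3 E-boxes and 1 TEAD match in its window. The RefSeq start sites of Tcf21 and Lrrn4 lie inside the gene spans given above, so their windows reach into those spans. The GATA match of Tcf21 falls within that overlap. No motif was shared by all 5 genes.

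The libraries held 13.9 to 25.2 M reads on the listed genes, and each value is a normalized CPM, that is, a count of reads scaled to an effective library size. The floor of detection, set at 3 reads, lay at 0.135 to 0.253 normalized CPM, and no member came near it: the lowest count was 41 reads (Bnc1 in female dorsal library 1). A pair of libraries stood apart in the markers of other cells. Male ventral library 7 had a summed level of erythroid markers of 53306 normalized CPM, against 6522 to 20194 in the other libraries of settled region, and a summed level of blood endothelial markers of 55.8, against 281 to 603. Female dorsal library 1 had a summed level of atrial cardiomyocyte markers of 12491, against 495 to 1996 in the others. Results are given with and without these libraries where their absence changed a call.

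Per kilobase of exon, Gpm6a was the most abundant of the 6 genes, with a mean over the 14 libraries of 75.7 normalized CPM per kb. Tcf21 followed at 43.3 and Lrrn4 at 33.6, then Wt1 at 13.7, Tbx18 at 9.04 and Bnc1 at 4.83. This order did not hold everywhere: per kb, Gpm6a exceeded Tcf21 in 11 of 14 libraries, Tcf21 exceeded Lrrn4 in 10 of 14 and Wt1 exceeded Tbx18 in 8 of 14, so these neighbours did not separate beyond their spread. Gpm6a was above Lrrn4, Tcf21 above Wt1, and Wt1 above Bnc1 in all 14 libraries, and Tbx18 was above Bnc1 in 12 of 14. The genes also differed in how far their level moved between libraries. Lrrn4 spanned a 42.9-fold range and Bnc1 a 30.1-fold range from the lowest to the highest library, Gpm6a 15.4-fold, Wt1 8.16-fold, Tcf21 6.10-fold and Tbx18 5.06-fold.

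**Figure D1:**
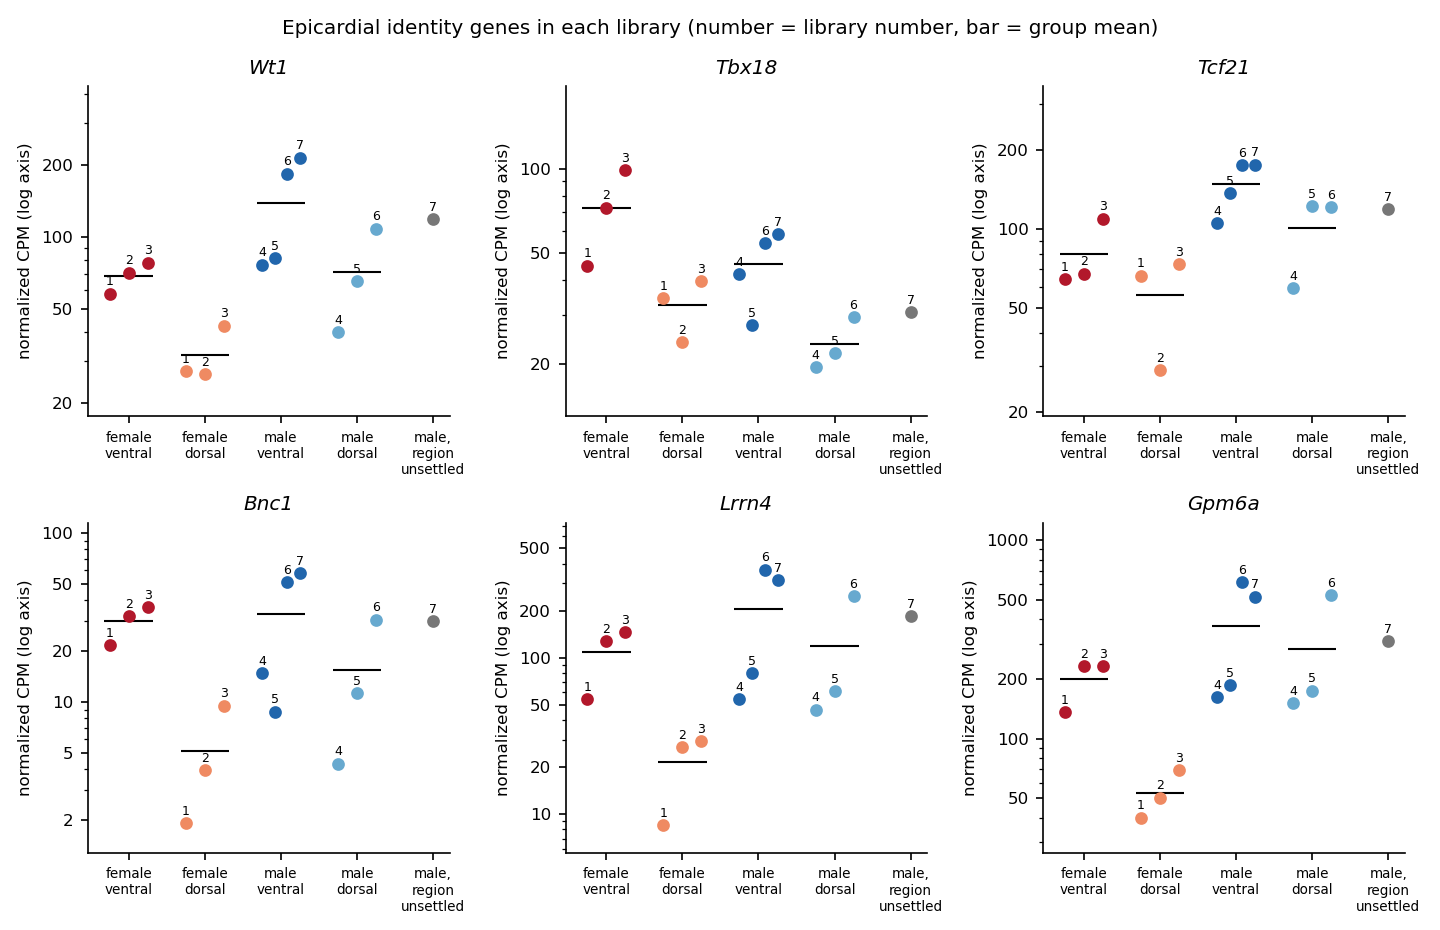
Normalized CPM (log axis) of each of the 6 genes in each of the 14 libraries, by sex and region; each point is a library with its number beside it and bars are group means. In females, ventral libraries lie above dorsal ones without overlap for all of these genes but Tcf21. The share of genes in the whole table without such overlap was not counted. On the male ventral side, libraries 6 and 7 stand above libraries 4 and 5 for all 6 genes, by less for Tbx18 and Tcf21.

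The first comparison asked whether the ventral and dorsal epicardium of female hearts differ in these genes. Of the 6 genes, 5 were higher ventrally in limma with Benjamini-Hochberg adjustment over 14411 genes (adjusted p under 0.05), and the change of Tcf21 did not pass. In this comparison 27.8% of all genes tested were called and 14.5% were called higher ventrally. The transcription factors Wt1 and Tbx18 rose by about 1 on the log2 scale, and Bnc1, Lrrn4 and Gpm6a by about 2. The median log2 change of the 6 genes was 1.49, against 0.01 over all genes tested.

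Wt1 measured 57.7, 70.7 and 78.0 normalized CPM in female ventral libraries 1, 2 and 3, and 27.3, 26.4 and 42.3 in the dorsal libraries of the same numbers. The lowest ventral library exceeded the highest dorsal one. The means were 68.8 ± 10.3 ventrally and 32.0 ± 8.94 dorsally (SD, n = 3 libraries each), a log2 change of 1.10 (standard error 0.208, limma adjusted p = 0.00502).

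Tbx18 measured 44.9, 72.6 and 98.7 normalized CPM ventrally and 34.3, 23.9 and 39.6 dorsally. The groups did not overlap, but ventral library 1 lay close to the dorsal libraries. The means of 72.1 ± 26.9 and 32.6 ± 7.95 (SD, n = 3 each) differed by a log2 change of 1.08 (standard error 0.281, limma adjusted p = 0.0198). This call was lost without female ventral library 2 (log2 change 1.04, adjusted p = 0.0736), without female ventral library 3 (0.82, adjusted p = 0.0655) and without female dorsal library 2 (0.88, adjusted p = 0.0689).

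For Tcf21 the regions overlapped. Its values were 64.4, 67.3 and 109 normalized CPM ventrally and 66.2, 28.8 and 73.2 dorsally, so that dorsal libraries 1 and 3 reached the level of ventral libraries 1 and 2. The log2 change was 0.58 with a 95% confidence interval from -0.17 to 1.32 (limma, adjusted p = 0.223).

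Bnc1 had the largest fitted change of the 6 genes. It measured 21.7, 32.3 and 36.3 normalized CPM ventrally and 1.92, 3.95 and 9.51 dorsally. The lowest ventral library was more than 2 times the highest dorsal one. The means of 30.1 ± 7.54 and 5.12 ± 3.93 (SD, n = 3 each) gave a log2 change of 2.51 (standard error 0.428, limma adjusted p = 0.00326).

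Lrrn4 measured 54.4, 127 and 146 normalized CPM in the ventral libraries and 8.52, 26.8 and 29.4 in the dorsal ones. Library 1 was the lowest on both faces. The means of 109 ± 48.3 and 21.6 ± 11.4 (SD, n = 3 each) gave a log2 change of 2.34 (standard error 0.464, limma adjusted p = 0.00600). Gpm6a measured 136, 232 and 232 ventrally and 39.9, 50.5 and 69.5 dorsally, again with library 1 lowest on both faces and no overlap. Its means of 200.0 ± 55.3 and 53.3 ± 15.01 (SD, n = 3 each) gave a log2 change of 1.88 (standard error 0.249, limma adjusted p = 0.00113). Without female dorsal library 1, the library rich in atrial markers, the log2 changes were 1.80 for Lrrn4 and 1.70 for Gpm6a and the same 5 genes were called.

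Other genes of the epicardium moved with them in female hearts. Of 15 further epicardial and mesothelial markers, 15 were called higher ventrally, with a median log2 change of 2.31. This list, like the other marker lists, was written with earlier results of these data known, so the count is a description and no independent support. Aldh1a2, the enzyme that makes retinoic acid, had a log2 change of 2.13 (limma, adjusted p = 0.0015), from 21.1 ± 7.29 dorsally to 96.2 ± 31.7 normalized CPM ventrally (SD, n = 3 each). The uroplakin Upk3b changed by 2.37 and mesothelin (Msln) by 2.81. Transcription factors of epicardial development and its mesenchymal transition did so at about the rate of all genes: 4 of 14 were called, beside 27.8% of all genes, with 3 higher ventrally, 1 lower and a median log2 change of 0.35. The 3 were Twist1 (3.03), Prrx1 (1.26) and Tead1 (1.04), and the fourth was Meis1 (-0.57).

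Markers of other cells of the layer moved as well. Of the fibroblast markers, 6 of 8 were called higher ventrally, and their summed level was 11843 to 22420 normalized CPM ventrally and 2988 to 4839 dorsally. Of the macrophage markers, 4 of 6 were called higher ventrally (summed level 173 to 356 against 54.3 to 101), and of the lymphatic endothelial markers 3 of 6 (360 to 752 against 146 to 184). Ventricular cardiomyocyte markers had 2 of 10 called higher ventrally and 0 lower, with a median log2 change of -0.22 and summed levels of 23322 to 33923 ventrally and 31651 to 44492 dorsally. The 2 were Ttn (log2 change 1.40) and Ryr2 (mean 154 ventrally and 97.9 dorsally), and no other marker of this list had a fitted change above 0. Smooth muscle and pericyte markers had 2 of 8 called higher and 3 lower (797 to 1218 against 1319 to 1640). Of the blood endothelial markers 0 of 6 were called, of the Schwann cell and neuronal markers 0 of 3 tested, of the atrial markers 0 of 6 higher and 1 lower, and of the erythroid markers 0 of 5 higher and 1 lower. The 2 hepatocyte markers listed summed to 1.23 normalized CPM or less in every female library, and the lung epithelial markers were not analysed here. The part of these cells in the regional change of the 6 genes was not tested.

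**Figure D2:**
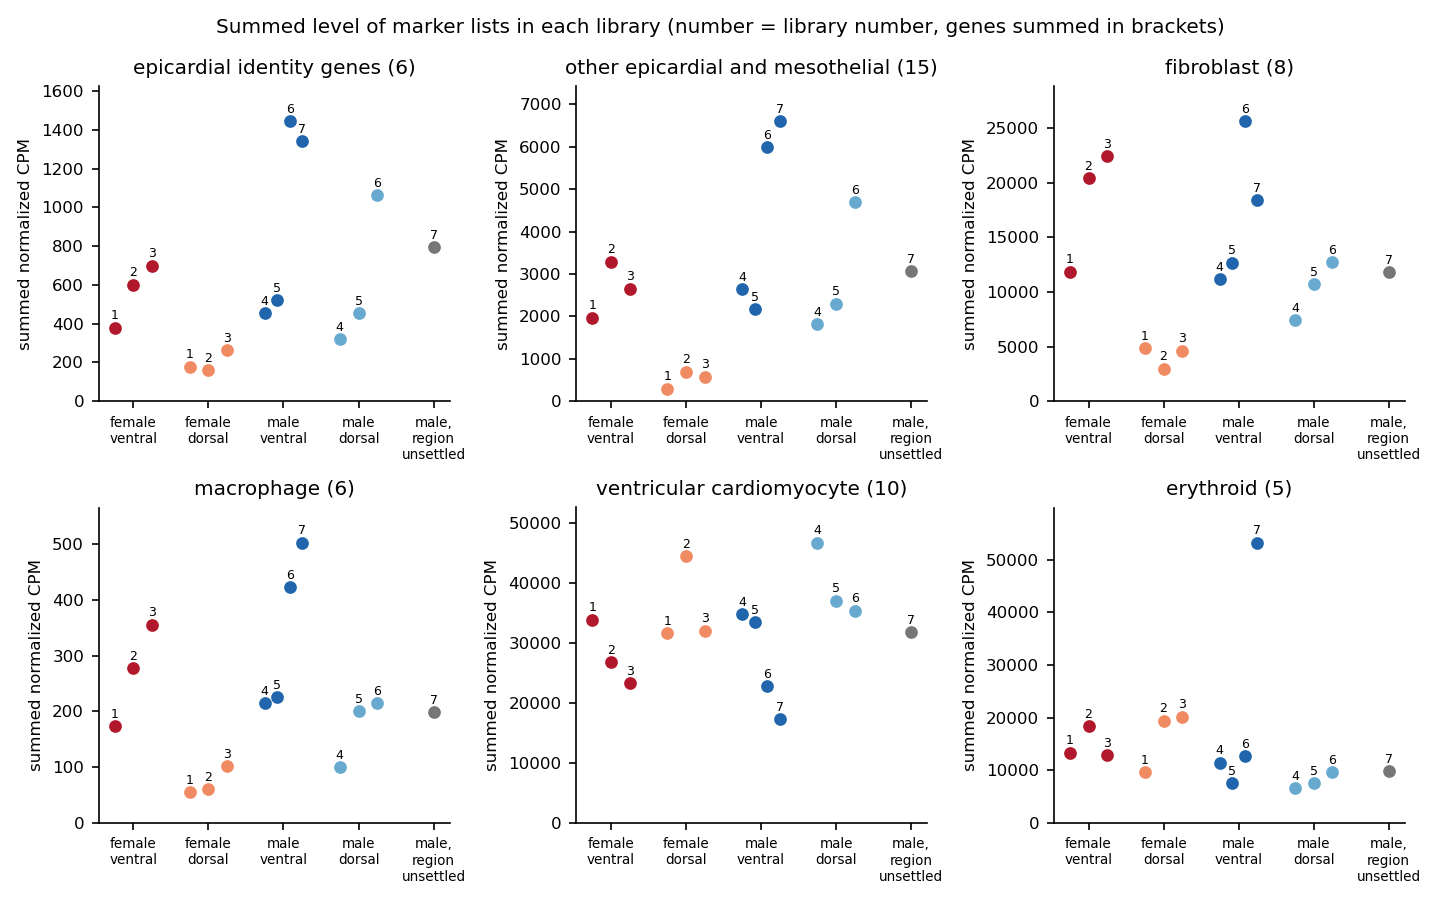
Summed normalized CPM of marker lists in each library, by sex and region; each point is a library with its number. The 6 epicardial identity genes sum to 379 to 699.9 in female ventral and 160.4 to 264 in female dorsal libraries, the further epicardial, fibroblast and macrophage lists also lie higher in every female ventral library, and male ventral library 7 stands apart in erythroid markers.

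The same question was asked of male hearts, with 4 ventral and 3 dorsal libraries. Here 0 of the 6 genes were called by limma, as were 0 of 14917 genes tested (0% called); 2083 genes (14%), Tbx18 alone among the 6, had an unadjusted p under 0.05, and edgeR's quasi-likelihood test on the recovered reads also called 0 genes. All 6 fitted changes pointed to the ventral side, with a median log2 change of 0.81 against 0.03 over all genes tested. With the library number as a replicate block, 76 genes were called but still 0 of the 6, and 5 of the 6 (all but Gpm6a) had an unadjusted p under 0.05, as did 15.9% of all genes. The lowest adjusted p was then that of Wt1 (0.0807, log2 change 0.67).

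For Lrrn4, Gpm6a, Bnc1 and Wt1 the male libraries of one region fell far apart. On the ventral side, Lrrn4 measured 54.3, 80.1, 366 and 314 normalized CPM in libraries 4, 5, 6 and 7, and on the dorsal side 46.6, 61.1 and 247 in libraries 4, 5 and 6. Ventrally libraries 6 and 7 were high and libraries 4 and 5 low, and dorsally library 6 was again the high one. The log2 change was 0.74 with a 95% confidence interval from -0.87 to 2.36 (limma, adjusted p = 0.654). Gpm6a measured 162, 187, 615 and 521 ventrally and 151, 174 and 527 dorsally. Dorsal library 6 lay above 3 of the 4 ventral libraries, and the log2 change was 0.38 with a 95% confidence interval from -0.82 to 1.59 (limma, adjusted p = 0.768).

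Bnc1 followed the same split between libraries. Its ventral values were 14.8, 8.76, 51.1 and 57.7 normalized CPM and its dorsal values 4.30, 11.2 and 30.6. The log2 change was 1.05 with a 95% confidence interval from -0.54 to 2.63 (limma, adjusted p = 0.516). Wt1, at 76.4, 81.2, 184 and 216 ventrally and 39.8, 65.0 and 108 dorsally, overlapped only through dorsal library 6, which exceeded ventral libraries 4 and 5. Its log2 change was 0.93 with a 95% confidence interval from -0.01 to 1.86 (limma, adjusted p = 0.362).

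Tbx18 and Tcf21 spread less between the male libraries. Tbx18 measured 42.0, 27.5, 54.0 and 58.2 normalized CPM ventrally and 19.5, 21.9 and 29.3 dorsally, so that ventral was higher in 11 of 12 pairs of libraries. Its log2 change was 0.88 with a 95% confidence interval from 0.29 to 1.48 (limma, unadjusted p = 0.00779, adjusted p = 0.285). Tcf21 measured 105, 137, 175 and 176 ventrally and 59.5, 122 and 121 dorsally, with ventral higher in 10 of 12 pairs, and its log2 change was 0.59 with a 95% confidence interval from -0.02 to 1.202 (limma, adjusted p = 0.368). Without male ventral library 7, the library rich in erythroid markers, the log2 change of Gpm6a was 0.14, that of Lrrn4 0.39 and that of Bnc1 0.66, and none was called. Of the 15 further epicardial markers 0 were called in males, with all 15 fitted changes above 0 and a median log2 change of 0.60.

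The male library of unsettled region held 119 normalized CPM of Wt1, 30.7 of Tbx18, 119 of Tcf21, 29.9 of Bnc1, 185 of Lrrn4 and 310.4 of Gpm6a. All 6 values lay within the range of the male ventral libraries. Within the male dorsal range lay Tcf21, Bnc1, Lrrn4 and Gpm6a, and Wt1 and Tbx18 were just above it.

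With sex as a covariate over the 13 libraries of settled region, 3 of the 6 genes were called higher ventrally, where 18.9% of 15772 genes were called and 9.8% were called higher ventrally. Over all genes the calls split into 1545 higher ventrally and 1429 higher dorsally, and into 1001 and 1692 after each library was corrected for GC content and gene length. The 3 members were Tbx18 (log2 change 0.97, standard error 0.209, limma, adjusted p = 0.00954), Wt1 (1.01, standard error 0.265, adjusted p = 0.0195) and Bnc1 (1.73, standard error 0.505, adjusted p = 0.0283). Lrrn4 (1.49, adjusted p = 0.0621), Gpm6a (1.08, adjusted p = 0.0641) and Tcf21 (0.58, adjusted p = 0.0911) did not pass. Bnc1 lost its call without any one of female ventral library 2 or 3, female dorsal library 1 or 2, male ventral library 6 or 7 or male dorsal library 4, with adjusted p between 0.0509 and 0.0672 and log2 changes between 1.47 and 1.63, and with the unsettled library taken as dorsal (1.49, adjusted p = 0.0507). Gpm6a was called with quantile normalization (1.196, adjusted p = 0.0429), and Lrrn4 and Gpm6a were called without male ventral library 4 or 5 or male dorsal library 6.

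Ventral and dorsal libraries of one sex share numbers, and within a number the ventral library was higher in 6 of 6 cases for Wt1, Tbx18, Lrrn4 and Gpm6a. It was higher in 5 of 6 for Tcf21, where number 1 had a log2 difference of -0.04. For Bnc1 it was higher in 5 of 6, with number 5 at -0.32. The same count was not made over all genes. A replicate block assumes that the numbers pair the libraries, which no label states. With the number as a replicate block, all 6 genes were called higher ventrally in both sexes together (limma), where 7.8% of all genes were. Lrrn4 then had a log2 change of 1.36 (adjusted p = 0.0244), Gpm6a one of 1.01 (adjusted p = 0.0381) and Tcf21 one of 0.54 (adjusted p = 0.0437). In this fit male ventral library 7 has no partner and adds nothing to the regional change.

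**Figure D3:**
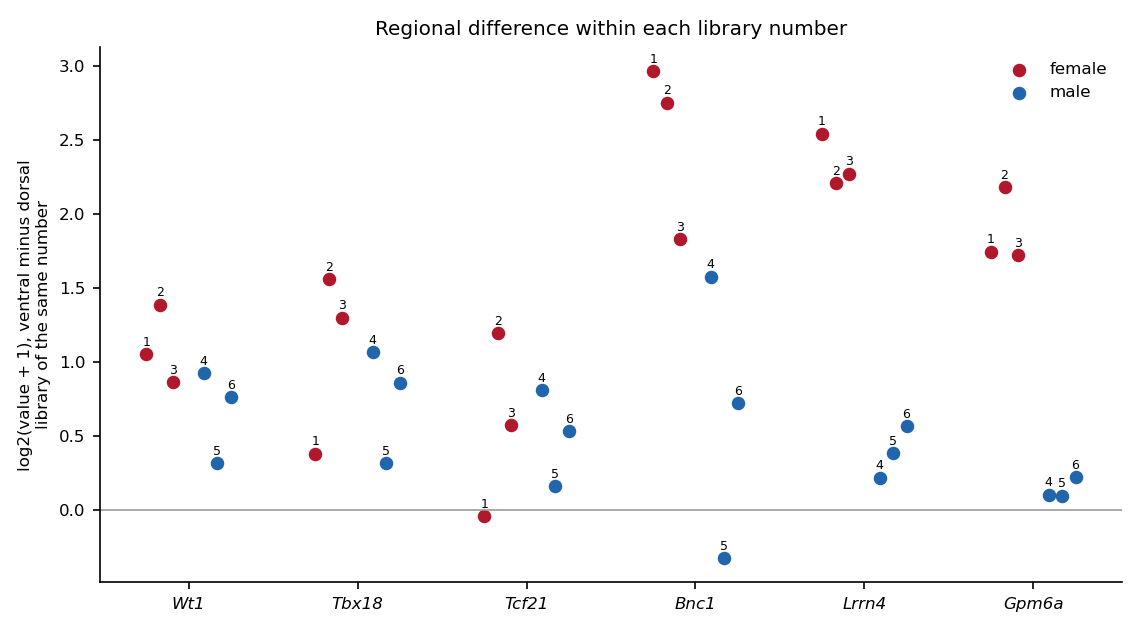
Difference of log2(normalized CPM + 1) between the ventral and the dorsal library of the same number, for each gene; red points are female numbers 1 to 3 and blue points male numbers 4 to 6. For Lrrn4 and Gpm6a the 3 female differences lie between 1.72 and 2.54 and the 3 male ones between 0.10 and 0.57, whereas for Wt1, Tbx18 and Tcf21 the sexes overlap. Genes of the whole table that separate the sexes in this way were not counted.

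Whether the regional change differed between the sexes was tested as an interaction. Without the block, 0 of the 6 genes passed in limma, where 2.73% of 15772 genes did, and 0 of the 6 had an unadjusted p under 0.05; edgeR called 0 of the 6 as well. The estimates differed in size, though none passed. For Wt1 (-0.18), Tbx18 (-0.20) and Tcf21 (0.02) the log2 changes of the sexes lay close together, and for Bnc1 (-1.47), Lrrn4 (-1.60) and Gpm6a (-1.50) the male change was lower by more than 1.

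With the replicate block, these last 3 passed, all with the smaller change in males, as 2.29% of all genes did in that direction. Lrrn4 differed by -1.95 (standard error 0.210, limma adjusted p = 0.000188), with differences within numbers of 2.54, 2.21 and 2.27 in females and 0.22, 0.39 and 0.57 in males. Gpm6a differed by -1.74 (standard error 0.200, adjusted p = 0.000241), with 1.74, 2.18 and 1.72 in females against 0.10, 0.10 and 0.22 in males. For neither gene did the sexes overlap, and the share of all genes without such overlap was not counted. Bnc1 differed by -1.86 (standard error 0.475, adjusted p = 0.0383), with 2.96, 2.75 and 1.83 in females against 1.58, -0.32 and 0.72 in males.

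Between the sexes, in a fit that adjusts for region, 3 of the 6 genes were called higher in males by limma. Of 15772 genes, 10.9% were called and 4.4% were called higher in males. This fit enters the ventral and dorsal libraries of one number as independent, which they may not be. With the libraries of one number averaged, 0 of the 6 genes were called. Gpm6a had a log2 change, male minus female, of 1.39 (standard error 0.391, adjusted p = 0.0326), Wt1 one of 0.95 (standard error 0.265, adjusted p = 0.0313) and Tcf21 one of 0.88 (standard error 0.235, adjusted p = 0.0247). Lrrn4 (1.32, adjusted p = 0.128) and Bnc1 (0.47, adjusted p = 0.608) were not called. Tbx18 was the only member with a lower fitted level in males, at -0.55 (95% confidence interval from -0.99 to -0.10, adjusted p = 0.108).

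These calls lay near the threshold. Each of the 3 genes lost its call without female ventral library 1 (adjusted p = 0.0706 for Wt1, 0.0626 for Tcf21 and 0.0661 for Gpm6a), male ventral library 6 (0.0659, 0.0520 and 0.0682), male dorsal library 5 (0.0541, 0.0545 and 0.0526) or male dorsal library 6 (0.0651, 0.0529 and 0.0529). Wt1 and Tcf21 also lost it without female ventral library 2 (0.0519 and 0.0579). Wt1 and Gpm6a lost it without female dorsal library 1 (0.0622 and 0.0719), female dorsal library 2 (0.0619 and 0.0644) or male ventral library 7 (0.0563 and 0.0592), and Gpm6a alone without female dorsal library 3 (0.0578). The log2 changes without 1 library were 0.79 to 1.09 for Wt1, 0.71 to 1.02 for Tcf21 and 1.07 to 1.60 for Gpm6a. Averaging the libraries of one number leaves 7 values, where number 7 is male ventral library 7 alone and region is not adjusted for. This gave limma adjusted p = 0.137 for Wt1, 0.0878 for Tcf21 and 0.0844 for Gpm6a. Wt1 also lost its call with the GC and length trend removed (log2 change 0.81, adjusted p = 0.0644) and with sex alone fitted to all 14 libraries (1.06, adjusted p = 0.0667).

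Region by region, the difference between the sexes was clearest for Gpm6a on the dorsal side. There its 3 male libraries (151, 174 and 527 normalized CPM) all exceeded the 3 female ones (39.9, 50.5 and 69.5), a log2 change of 2.19 (standard error 0.514, limma adjusted p = 0.0154). It was the 1 of 6 genes called there, where 7.16% of all genes were called and 2.46% were called higher in males. Without female dorsal library 1 its adjusted p was 0.0680, without female dorsal library 2 0.0539 and without male dorsal library 6 0.0786. Lrrn4 on the dorsal side, at 46.6 to 247 in males and 8.52 to 29.4 in females, did not overlap either, with a log2 change of 2.17 that was not called (limma, adjusted p = 0.105). How many of all genes lack overlap between the sexes dorsally was not counted. On the ventral side 0 of the 6 genes were called by limma or by edgeR, where 8.45% of all genes were called by limma, and 3 of the 6, Wt1, Tbx18 and Tcf21, had an unadjusted p under 0.05, as did 24.6% of all genes.

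Tcf21 on the ventral side measured 64.4 to 109 normalized CPM in females and 105 to 176 in males, a log2 change of 0.89 (limma, adjusted p = 0.107), and Tbx18 there measured 44.9 to 98.7 in females and 27.5 to 58.2 in males, a log2 change of -0.64 (adjusted p = 0.188). Of the 15 further epicardial markers, 6 were called higher in males over both regions and 0 lower (limma), with a median log2 change of 1.12. They were the keratins Krt7 (1.81), Krt8 (1.86), Krt18 (1.37) and Krt19 (1.55), mesothelin (Msln, 1.79) and Upk3b (1.62). Of the 14 transcription factors, Meis1 (0.49) and Snai1 (0.73) were called higher in males and Gata4 (-0.58) and Gata6 (-0.86) lower. Of the macrophage markers 1 of 6 was called higher in males, and 0 of the fibroblast (8), ventricular cardiomyocyte (10) and blood endothelial (6) markers were called in either direction. Dorsally, where Gpm6a was called, markers of other lists were called too. There 10 of the 15 further epicardial markers were called higher in males (median log2 change of the list 2.17, summed level 1825 to 4692 normalized CPM in males and 295 to 699 in females). Of the fibroblast markers 3 of 8 were called higher (0.86, 7441 to 12715 against 2988 to 4839), of the macrophage markers 2 of 6 (1.17, 99.5 to 214 against 54.3 to 101) and of the lymphatic endothelial markers 1 of 6 (median -0.24, 194 to 317 against 146 to 184), and none of these lists had a marker called lower. Despite the higher sum, only 2 of the 6 lymphatic endothelial markers had a fitted change above 0. The part of these cells in the difference between the sexes was not tested.

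**Figure D4:**
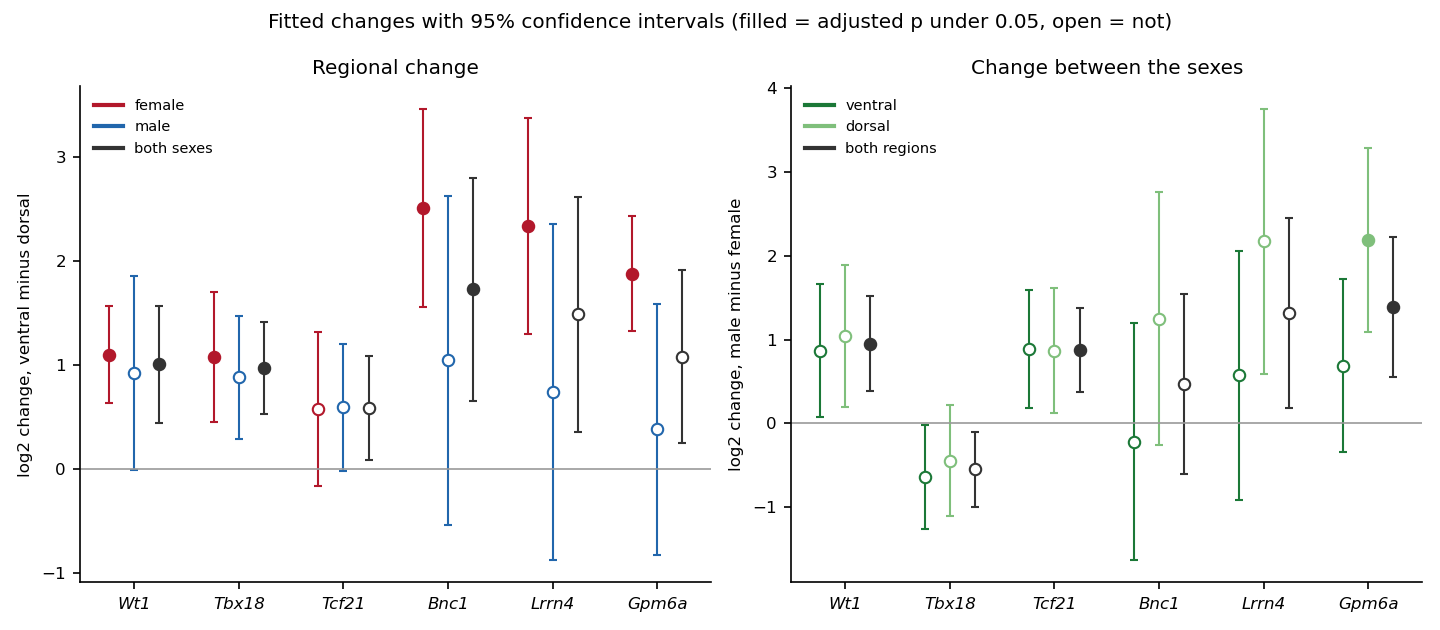
Fitted log2 change of each gene with its 95% confidence interval, ventral minus dorsal (left) and male minus female (right), from limma without the replicate block; filled points have an adjusted p under 0.05 and open points do not. Bnc1, Lrrn4 and Gpm6a have the largest regional changes in females (2.51, 2.34 and 1.88) and the widest intervals in males, and Tbx18 is the only gene with a fitted level below 0 for males in both regions.

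Across libraries the 6 genes varied together for the most part. Over the 14 libraries, Pearson's r of log2(normalized CPM + 1) ranged from 0.28 to 0.97 over the 15 pairs of genes (median 0.79), and Spearman's rho from 0.21 to 0.98. With permutation tests (two-sided, 100000 resamples) and Benjamini-Hochberg adjustment over the 15 pairs, 11 pairs had an adjusted p under 0.05. These tests treat all libraries as independent, which libraries of one number may not be. They also shuffle libraries across region and sex, so shifts with region or sex that 2 genes share enter r. How many other pairs of genes would pass was not counted. The closest pair was Lrrn4 and Gpm6a, the 2 surface proteins (r = 0.97, rho = 0.98, permutation p = 1e-05 for both, the smallest the resamples can give, adjusted p = 2.5e-05 for r and 7.5e-05 for rho). Without the 2 libraries farthest from the median of Lrrn4, r was 0.96.

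The 4 pairs that did not pass all involved Tbx18, whose r was 0.41 with Wt1, 0.41 with Lrrn4, 0.33 with Gpm6a and 0.28 with Tcf21. Its loosest pair, with Tcf21, had rho = 0.21 (permutation p = 0.329 for r and 0.465 for rho, adjusted p = 0.329 and 0.465). Within each sex, however, Tbx18 followed the others. With Wt1, r was 0.93 over the 6 female and 0.87 over the 8 male libraries, and with Tcf21 it was 0.82 and 0.74. Over all pairs, r ranged from 0.43 to 0.98 in females and from 0.67 to 0.99 in males. As deviations from the means of the 4 groups (13 libraries), r was 0.42 to 0.97, with the lowest value for Tcf21 and Lrrn4.

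**Figure D5:**
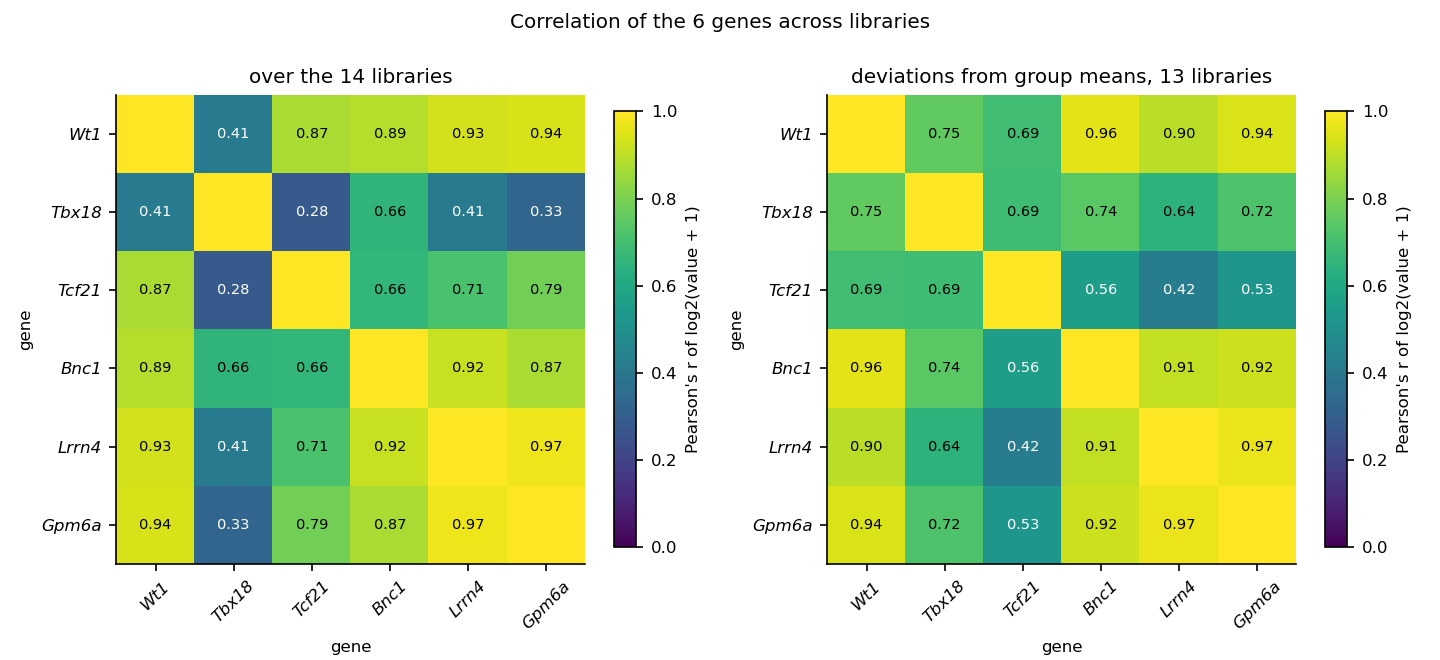
Pearson's r of log2(normalized CPM + 1) between each pair of the 6 genes, over all 14 libraries (left) and over deviations from the group means of 13 libraries (right), on a colour scale from 0 to 1. Wt1, Bnc1, Lrrn4 and Gpm6a form a block of high values in both (0.87 to 0.97 on the left), Tbx18 has lower values with them on the left (0.33 to 0.66) than on the right (0.64 to 0.75), and Tcf21 has the lowest values on the right.

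The genes most like the 6 were sought by the correlation of log2(normalized CPM + 1) with the mean of the standardized members over the 14 libraries, as a description with no test. Of 14573 genes compared, the members among them, 278 named genes other than the members had r above 0.9. The median r over all named genes other than the members was -0.01. The 10 highest were Gstm2 (0.98), Vtcn1, Bst2, Anxa3, Car13, Gsdmd, Anxa1, Dlk1, Il18 and Ifi27 (the last 0.97). Gstm2 encodes a glutathione S-transferase, Anxa1 and Anxa3 annexins, and Dlk1 a membrane protein related to the Notch ligands. Of the further epicardial markers, Aldh1a2 (0.94), Upk1b (0.94) and Nkain4 (0.92) came closest, and Bnc2, the paralog of Bnc1, was the least alike of that list (0.71). The lowest r belonged to Fdps (-0.95), an enzyme of the mevalonate pathway, followed by Etfrf1, Fam81a, Qk and Bzw2.

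Taken one by one, the members had different nearest genes over the 14 libraries. Lrrn4 was most like Dpp4, Ly6e and Ggt5 (r = 0.98 to 0.97), Gpm6a most like Adgrd1, Golm1 and Colec12 (0.98), Wt1 most like Sorbs3, Gsdmd and 9930012K11Rik (0.97 to 0.96), and Bnc1 most like Fabp5, 2410006H16Rik and Per1 (0.97 to 0.96). Tcf21 was most like F13a1 (0.95), Thrb (0.93) and Vgll3 (0.92). Tbx18 was most like Npas3, Reck and Slc44a1 (0.95 to 0.94). No gene appeared among the nearest 3 of more than 1 member.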

How the data were processed

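RNA sequencing values of 14 mouse libraries were used, each from a pool of 2 hearts and read as single 60-base reads. According to the methods and the labels, the authors trimmed adapters with Cutadapt, quantified reads per gene with RSEM (version 1.3.1 in the submitters' processing notes, another version in the methods) on GRCm38, normalized with limma and left out genes that do not reach 1 CPM in 3 samples. The signal they deposited is a normalized CPM. Whole reads were recovered for 100.0% of its values (tolerance 0.02 reads) as reads plus an offset over an effective library size. Library preparation did not mark strand. No column belongs to an unmapped sample. GENCODE M21 held 15877 of the 15894 identifiers, and promoter sequences came from RefSeq.

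Comparisons used limma 3.58.1 in R 4.3.3 (lmFit, eBayes with trend) on log2(value + 1), over genes that reach a value of 1 in 3 or more of the libraries fitted. The Benjamini-Hochberg adjustment ran over all genes tested, with calls under 0.05. The pseudocount of 1 understates the change of low genes such as Bnc1. Interactions and comparisons of the sexes within a region came from a fit of the 4 groups. Script steps were tested on simulated data. The members, the gene lists and the rules for named genes (all list members, genes that overlap a member, and the genes most and least like the members) were chosen with earlier results of these data known.

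To see whether the numbers pair the libraries, deviations from the group means were correlated over 15772 genes between the ventral and the dorsal library of a number. This gave 0.187, 0.169 and 0.270 in females (numbers 1 to 3) and 0.427, 0.175 and 0.351 in males (numbers 4 to 6). Every correlation was over 0.1, and the block was fitted on the assumption that the numbers pair the libraries. These values cannot show the pairing, since no correlations between libraries of unlike numbers are set beside them. No label says what a number marks. The sexes share no number, so the comparison of the sexes could not be blocked. The methods speak of several litters, but no source says which pool came from which, so p-values measure the spread between these pools. Intervals cover that spread, and the floor of 3 reads covers counting error only.

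As alternatives, the pseudocount was set to 0.1, the filter was dropped or raised to a mean of 10, values were rescaled (median of ratios, or quantiles), eBayes ran without trend, edgeR 4.0.16 tested the recovered reads, GC content and length were regressed out (splines with 5 degrees of freedom), libraries were left out in turn, the replicate block was added, and the unsettled library was placed on either side. For the sexes, sex alone and averages over a number were also fitted.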

Additional observations from a re-analysis of the deposited data

Results flagged for a closer look

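The regional change (ventral minus dorsal) of 3 members differed between the sexes by the interaction term of limma with the replicate block, and by neither limma nor edgeR without it. Male minus female, the difference was -1.95 for Lrrn4, -1.74 for Gpm6a and -1.86 for Bnc1 on the log2 scale. Sex and the series of library numbers cannot be told apart in it. No library of the male ventral group, the only group of 4, stood far from the others by Dixon's test in any of the 6 genes. That test looks for a single library apart from the rest. It could not flag the split of libraries 4 and 5 from libraries 6 and 7 described above, so it does not show that the group was even.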

How the results depend on the processing

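In female hearts, Wt1, Bnc1, Lrrn4 and Gpm6a were called in all 16 alternatives and Tbx18 in 12 of 16. Tbx18 also lost its call with eBayes without trend (adjusted p = 0.0509, limma), and Tcf21 passed with the replicate block and the GC and length trend removed (adjusted p = 0.0499). In male hearts 0 of the 6 genes were called in 19 alternatives. In both sexes together, Wt1 and Tbx18 were called in all 25 and Bnc1 in 17. All 6 regional changes kept their sign in every alternative of these 3 comparisons.

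Of the 6 genes, 3 were called in both sexes together, 6 with the replicate block (with or without removal of the GC and length trend), 4 with quantile normalization (Gpm6a gained its call), 2 with the unsettled library as dorsal (Bnc1 lost it) and 2 to 5 without 1 library. For the interaction the count of 0 became 3 with the replicate block, again with or without that removal, and stayed 0 without 1 library. By itself the block changed no other call of a member, and with the trend removed as well Tcf21 gained its call in females. Over both regions, the 3 members higher in males became 1 with eBayes without trend, 2 with the GC and length trend removed and 2 with sex alone in all 14 libraries (Wt1 lost its call in both), 0 with the averages over a number and 0 to 4 without 1 library. Dorsally, the count of 1 became 2 (Gpm6a and Lrrn4) with the unsettled library as dorsal and 0 to 1 without 1 library. The cause was not tested.

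Estimates near 0 changed sign. The ventral difference of Bnc1 between the sexes (-0.22) was 0.14 with edgeR and -0.60 to 0.26 without 1 library. The interaction of Wt1 was -0.53 to 0.18 without 1 library, that of Tbx18 -0.497 to 0.0624 and that of Tcf21 -0.32 to 0.43. The interaction of Tcf21 (0.02) was also -0.0855 with the GC and length trend removed, -0.0743 with the replicate block, -0.158 with both, -0.0604 with the unsettled library as dorsal and -0.0390 with it as ventral.

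Counts over all genes moved by more than 1.5 times in these cases. In females 4007 calls became 2158 without ventral library 2 and 2291 without dorsal library 2. In males 0 became 76 with the replicate block, 61 with the block and the trend removed, 12 without dorsal library 6, 1 without dorsal library 4 and 1 with eBayes without trend. In both sexes 2974 became 1557 without female ventral library 2, 1739 without female ventral library 3 and 1429 without female dorsal library 2. Between the sexes 1726 became 944 with the averages over a number, and ventrally 1333 became 547 and 508 without female ventral library 2 and 3. The interaction count of 431 became 804 with the block, 766 with the block and the trend removed, 267 without female ventral library 2 and 260 without female dorsal library 2. Every member had 41 reads or more in every library, above the floor of 3 reads.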
